A study of Mus musculus with 18 samples.

Results

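The expression of 36 genes for the enzymes of the tricarboxylic acid (TCA) cycle, pyruvate entry and oxidation, malate and glutamate conversion was followed in 3 adipose tissues of the mouse. The genes were chosen by symbol, and each had 1 row among the 54347 rows of the gene table. All 36 passed the filter on low counts, which left 18728 genes to test.

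RNA was sequenced from 3 fat depots of 6 C57BL/6N mice at 12 weeks of age on chow diet. These were the interscapular brown depot (iBAT), the white depot of the groin (inguinal, iWAT) and the white depot beside the epididymis (epididymal, eWAT). Of these, 3 were wild type (wt) and 3 were knockouts of the ΔGm15551 line (ko), which carries a CRISPR/Cas9 deletion that takes in exon 1 of the long noncoding RNA gene Gm15551. The knockout line had been backcrossed to wild type animals. By the mouse identifiers in the labels, every mouse gave all 3 tissues, which made 18 libraries in 6 groups of 3. Levels are given as CPM, the usual counts-per-million scale, with the library total multiplied by its TMM factor, and a fold change is called at an edgeR adjusted p under 0.05 over all genes tested.

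Pyruvate enters the mitochondrion through a carrier of paired subunits and is either oxidised to acetyl-CoA by the pyruvate dehydrogenase complex or carboxylated to oxaloacetate. Kinases switch the complex off by phosphorylation and phosphatases switch it on again. The TCA cycle then oxidises acetyl-CoA and hands electrons to the respiratory chain, which in brown fat is uncoupled for heat. Fat cells also use citrate, and NADPH from malic enzyme and cytosolic isocitrate dehydrogenase, for lipid synthesis.

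Total counts per library ranged from 14997901 to 34389586. A count of 0 allows up to 3 counts, or 0.0728 to 0.235 CPM, for counting error alone. Mitochondrially encoded genes took 22.9% to 27.0% of the total in the iBAT libraries and 3.77% to 9.64% in the white ones. Gm15551 held 40 to 316 counts in the wild type libraries and 0 to 4 in the knockout libraries. The summed level of 8 brown adipocyte markers lay between 7604 and 13292 CPM in iBAT, and at most at 353 CPM in iWAT and 23.1 CPM in eWAT, so the tissue labels and the markers matched.

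Libraries of the white tissues stood apart in 4 cases. In iWAT ko 1, all 12 skeletal muscle markers were above the other iWAT libraries, with a sum of 4849 CPM against 4.25 to 8.05 CPM. The sum of 12 lymphocyte and lymph node markers was 1307 CPM in iWAT wt 3 and 547 CPM in iWAT ko 2, beside a median of 22.7 CPM over iWAT. The same libraries held the highest sums of 8 macrophage markers, 1010 CPM in iWAT wt 3 and 1205 CPM in iWAT ko 2, and the other iWAT libraries held 267 to 616 CPM. In eWAT ko 3, the sum of 10 epididymis markers was 4838 CPM against 0.172 to 17.4 CPM in the other eWAT libraries. Of the 10, 7 were above all other eWAT libraries, and Lcn9 was at 0 counts. In bulk tissue, fewer cells of a type and less RNA per cell cannot be told apart.

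Brown and white fat were compared first. In iBAT, 27 of the 36 genes were higher than in iWAT and 3 were lower, and 28 were higher than in eWAT with the same 3 lower, Pdk3, Me2 and Pdp1. Over all genes tested, 24.0% were called higher and 30.3% lower in iBAT than in iWAT, and 24.4% higher and 30.2% lower than in eWAT. The median log2 fold change of the 36 genes was 2.12 against iWAT and 2.46 against eWAT, beside -0.14 and -0.17 for all genes tested. All 16 genes of the TCA cycle and the pyruvate dehydrogenase complex were higher in both comparisons. Summed, these 16 genes reached 21878 to 29948 CPM in iBAT, while the iWAT libraries held 1957 to 5595 CPM and the eWAT libraries 1727 to 3336 CPM.

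Every iBAT library lay above every iWAT library for 26 of the 36 genes and below for 2. Among all genes tested, 17.7% lay wholly above and 16.9% wholly below. Against eWAT the corresponding numbers were 27 above and 3 below, beside 18.8% and 18.6% of all genes. Without the 4 libraries that stood apart, 28 genes were higher and 2 lower against iWAT, and 29 higher and 3 lower against eWAT. Over all genes tested in that fit, 9127 and 11513 of 20162 were called in either direction.

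**Figure D1:**
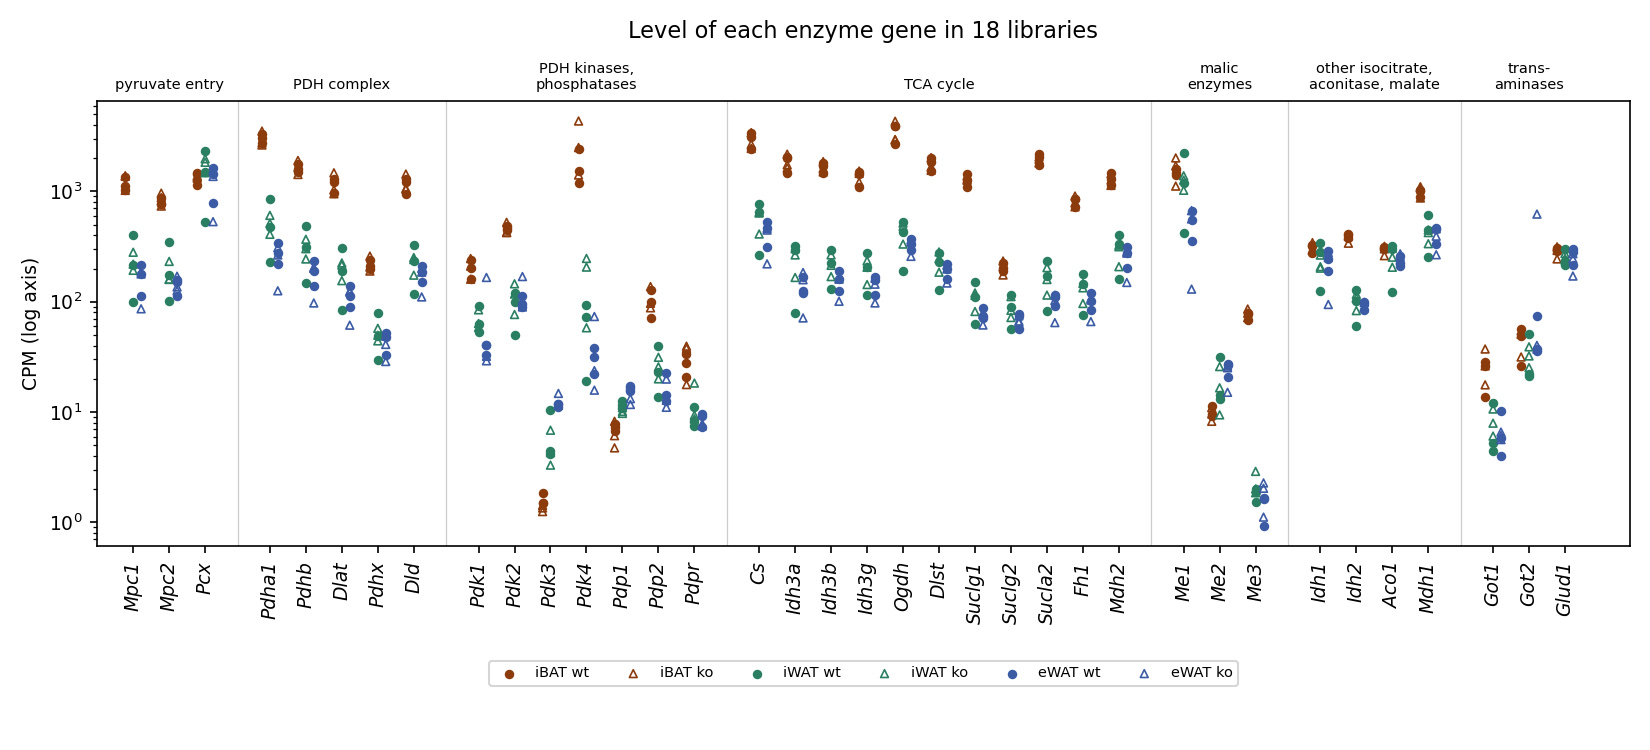
CPM of the 36 genes on a log axis in 18 libraries, grouped by role, with colours for the tissues, filled circles for wt and open triangles for ko. The iBAT points stand clear of the white tissues for most TCA cycle genes, as for Sucla2 (1728 to 2178 CPM against at most 236), overlap them for Pcx, Aco1 and Glud1, and lie below them for Pdk3.

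Pyruvate entry was split between the carrier and the carboxylase. Mpc1, a subunit of the mitochondrial pyruvate carrier, ranged from 1022 CPM over a median of 1227 CPM to 1380 CPM in iBAT, from 99.3 over 217 to 403 CPM in iWAT and from 86.2 over 179 to 213 CPM in eWAT. Its partner Mpc2 ranged from 736 over 817 to 964 CPM in iBAT, from 102 over 167 to 346 CPM in iWAT and from 114 over 144 to 170 CPM in eWAT. All iBAT libraries were above all white libraries for both subunits. Against iWAT, iBAT was higher by a log2 fold change of 2.37 ± 0.29 (SE) for Mpc1 and 2.09 ± 0.22 for Mpc2, with edgeR adjusted p of 3.26e-06 and 9.28e-07.

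Pcx, pyruvate carboxylase, which makes oxaloacetate from pyruvate, went with neither subunit. It ranged from 1153 over 1369 to 1455 CPM in iBAT, from 532 over 1666 to 2308 CPM in iWAT and from 532 over 1406 to 1639 CPM in eWAT. The white libraries spread on both sides of the iBAT libraries, and the lowest in each white tissue were iWAT wt 3 and eWAT ko 3. Fitted log2 fold changes were -0.25 ± 0.30 against iWAT and 0.14 ± 0.30 against eWAT, with edgeR adjusted p of 0.515 and 0.707. The value against eWAT was -0.02 without eWAT ko 3.

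The pyruvate dehydrogenase complex was higher in iBAT in all 5 of its genes. Pdha1, the alpha subunit of the decarboxylase E1 and the target of the kinases, ranged from 2633 over 2891 to 3518 CPM in iBAT, from 230 over 495 to 845 CPM in iWAT and from 126 over 271 to 341 CPM in eWAT. Dlat, the acetyltransferase E2, had the largest change against iWAT, with 952 over 1119 to 1474 CPM in iBAT and 84.7 over 203 to 310 CPM in iWAT. Pdhx, which anchors E3 in the complex, had the smallest, with 190 over 209 to 259 CPM in iBAT and 29.5 over 49.5 to 78.4 CPM in iWAT. The groups did not overlap for any of the 5 genes. In the fit, log2 fold changes against iWAT lay between 2.08 ± 0.20 (Pdhx) and 2.55 ± 0.27 (Dlat), and those against eWAT between 2.38 ± 0.20 (Pdhx) and 3.55 ± 0.29 (Pdha1), and the edgeR adjusted p was at most 1.07e-06 in both. Pdhb, the beta subunit of E1, and Dld, the E3 dehydrogenase that other complexes share, lay between them.

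The kinases of the complex did not move as 1 group. Pdk4, the kinase known to rise in fasting, ranged from 1191 over 1967 to 4345 CPM in iBAT, from 19.1 over 83.3 to 247 CPM in iWAT and from 15.8 over 27.5 to 73.4 CPM in eWAT. The ratio of mean CPM of iBAT was 19.2 over iWAT and 65.4 over eWAT, and iBAT overlapped neither white tissue. Its log2 fold change was 4.37 ± 0.53 and 5.98 ± 0.57, with edgeR adjusted p of 3.68e-06 and 1.82e-07. Pdk4 also varied among the iBAT libraries more than any other of the 36 genes, with a coefficient of variation of 52.4% beside a median of 12.2%. The library ko 1 held the highest Pdk4 of each tissue, and in iWAT that was the library with skeletal muscle genes, whose part in its value of 247 CPM was not tested.

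Pdk3, a kinase of the same family, ran the other way. It ranged from 1.25 over 1.46 to 1.86 CPM in iBAT, from 3.30 over 4.39 to 10.5 CPM in iWAT and from 11.1 over 11.7 to 14.8 CPM in eWAT. The 3 tissues did not overlap, with the highest iWAT values in iWAT wt 3 (10.5 CPM) and iWAT ko 2 (6.84 CPM), the libraries with high lymph node and macrophage genes. The part of those cells in this result was not tested. Mean CPM of eWAT was 8.19 times that of iBAT, and the log2 fold change of iBAT was -1.91 ± 0.24 against iWAT and -3.04 ± 0.25 against eWAT (edgeR adjusted p = 5.42e-06 and 2.98e-08).

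Pdk1 and Pdk2, the other two kinases, were higher in iBAT. Pdk2 ranged from 423 over 456 to 524 CPM in iBAT, from 49.6 over 109 to 145 CPM in iWAT and from 89.3 over 98.2 to 169 CPM in eWAT. Pdk1 ranged from 160 over 206 to 246 CPM in iBAT, from 53.5 over 62.9 to 91.3 CPM in iWAT and from 29.1 over 36.6 to 166 CPM in eWAT. The eWAT values of 166 CPM for Pdk1 and 169 CPM for Pdk2 both came from eWAT ko 3, the library with epididymis genes, and the other eWAT libraries held at most 40.5 and 113 CPM. For Pdk1, eWAT ko 3 was the only white library to reach into the iBAT range. Of the phosphatases, Pdp1 was lower in iBAT, with a log2 fold change of -0.68 ± 0.13 against iWAT (edgeR adjusted p = 0.000285), and its levels were 4.73 to 8.24 CPM in iBAT, beside 9.72 to 12.5 CPM in iWAT and 11.7 to 17.1 CPM in eWAT. Pdp2, the second phosphatase, and Pdpr, the regulatory subunit, were higher in iBAT by 2.01 ± 0.25 and 1.5 ± 0.23 on the log2 scale (edgeR adjusted p = 4.11e-06 and 3.78e-05), though iWAT ko 2 held more Pdpr (18.3 CPM) than the lowest iBAT library (17.7 CPM).

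**Figure D2:**
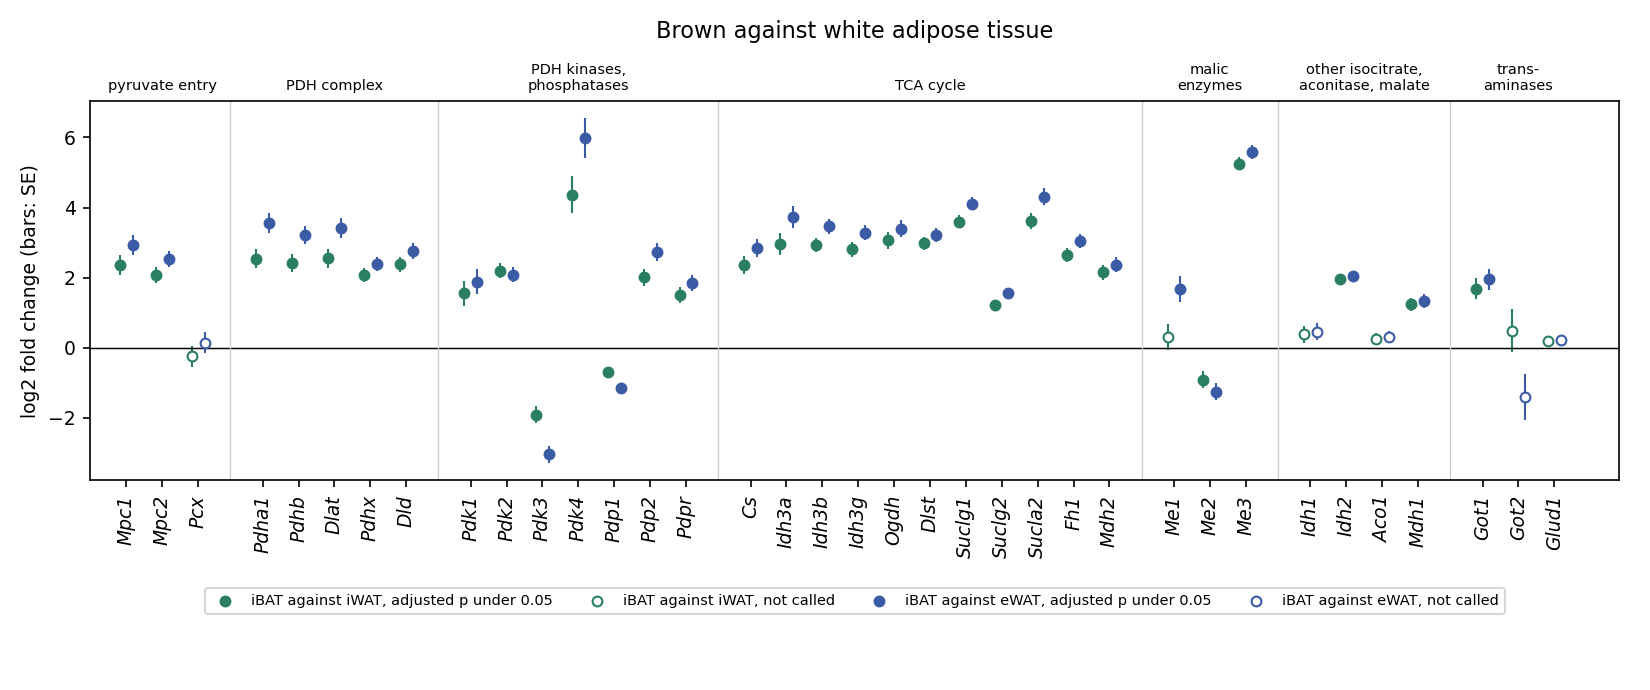
Log2 fold change of iBAT against iWAT (green) and against eWAT (blue) for each of the 36 genes by role, with bars for the SE, filled points for an edgeR adjusted p under 0.05 and open points for genes not called. TCA cycle genes lie between 1.21 and 4.31, Me3 and Pdk4 stand highest, and Pdk3, Pdp1 and Me2 lie below 0 in both comparisons. The open points of Got2 against eWAT and Pcx against iWAT also lie below 0.

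The TCA cycle was higher in iBAT in each of its 11 listed genes. Cs, citrate synthase, which opens the cycle, ranged from 2410 over 2892 to 3410 CPM in iBAT, from 267 over 642 to 763 CPM in iWAT and from 220 over 454 to 526 CPM in eWAT. Idh3a, the catalytic subunit of the NAD-dependent isocitrate dehydrogenase, ranged from 1483 over 1869 to 2174 CPM in iBAT, from 78.9 over 280 to 317 CPM in iWAT and from 71.2 over 142 to 184 CPM in eWAT. Ogdh, the E1 component of the 2-oxoglutarate dehydrogenase complex, ranged from 2673 over 3439 to 4323 CPM in iBAT, from 190 over 458 to 532 CPM in iWAT and from 258 over 342 to 369 CPM in eWAT. No white library reached the iBAT range for any of the 11 genes. On the log2 scale iBAT exceeded iWAT by 2.36 ± 0.26 for Cs, 2.96 ± 0.31 for Idh3a and 3.06 ± 0.24 for Ogdh, and eWAT by 2.84 ± 0.26, 3.74 ± 0.32 and 3.40 ± 0.24 (edgeR adjusted p at most 1.08e-06). Idh3b and Idh3g, the regulatory subunits of the isocitrate dehydrogenase, Dlst, the succinyltransferase of the Ogdh complex, Fh1, fumarase, and Mdh2, mitochondrial malate dehydrogenase, lay between 2.15 and 2.98 against iWAT.

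The largest and the smallest change of the cycle fell within 1 enzyme. Succinyl-CoA synthetase pairs the alpha subunit Suclg1 with either Sucla2, which makes the enzyme ADP-forming, or Suclg2, which makes it GDP-forming. Sucla2 ranged from 1728 over 2004 to 2178 CPM in iBAT, from 81.8 over 164 to 236 CPM in iWAT and from 64.7 over 106 to 114 CPM in eWAT. Suclg2 ranged from 175 over 204 to 234 CPM in iBAT, from 57.1 over 86.4 to 116 CPM in iWAT and from 57.0 over 70.6 to 78.2 CPM in eWAT. All iBAT libraries were above all white libraries for both, with a ratio of mean CPM over iWAT of 12.2 for Sucla2 and 2.32 for Suclg2. The log2 fold change against iWAT was 3.61 ± 0.23 for Sucla2, 3.60 ± 0.19 for Suclg1 and 1.21 ± 0.15 for Suclg2 (edgeR adjusted p = 4.29e-09, 4.37e-10 and 4.23e-06).

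Because the TCA cycle genes moved together, the promoters of the listed genes were searched for short elements of factors known to act on mitochondrial genes. RefSeq windows of 300 bases (GRCm38.p6), from 250 before to 50 after a gene's start, were at hand for 33 of the 36 genes in 44 windows. The elements, read on both strands, were the estrogen-related receptor core AAGGTCA, the nuclear respiratory factor 1 core GCGCATGCG, the GA-binding protein element CCGGAAGT and the cyclic AMP response element TGACGTCA. AAGGTCA was found in 2 of the 44 windows (Got1 and Ogdh) and in 4.72% of all 32851 windows. GCGCATGCG was found in 2 windows of Ogdh and in 1.75% of all windows, and CCGGAAGT in 1 window of Dlst and in 3.89% of all windows. TGACGTCA was found in 5 windows of Mdh2, Ogdh and Pdpr, which are 3 of the 33 genes, and in 1.79% of all windows. Ogdh had 6 of the 44 windows and Mdh2 and Pdpr had 1 each, so counts by window repeat Ogdh. Stretches of Ogdh, Mdh2 and Pdpr around TGACGTCA, and of Got1 around AAGGTCA, are printed here 5′ to 3′ on the strand of the gene with the element in capitals, so that the genes can be read side by side. Each stretch held a match to 1 element. The stretches lie at chr11:6291506-6291593 (Ogdh, plus strand), chr5:135778511-135778540 (Mdh2, plus strand), chr8:111094586-111094615 (Pdpr, plus strand) and chr19:43524804-43524855 (Got1, minus strand). The elements begin 51, 127, 148 and 245 bases before the respective RefSeq start. The Mdh2 stretch lies inside the GENCODE gene, which begins at 135778480. A match is a run of letters and was not tested as a binding site.
Ogdh: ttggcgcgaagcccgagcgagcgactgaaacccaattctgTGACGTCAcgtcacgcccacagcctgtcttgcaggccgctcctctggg
Mdh2: ggagagaatcgTGACGTCAggcctcgctcg
Pdpr: gtccgccgcggTGACGTCAcggcgcgtcgg
Got1: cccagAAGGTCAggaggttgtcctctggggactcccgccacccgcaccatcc

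The 3 malic enzymes, which convert malate to pyruvate, each took another course. Me3, the mitochondrial NADP-dependent form, ranged from 68.8 over 78.3 to 85.9 CPM in iBAT, from 1.52 over 1.94 to 2.90 CPM in iWAT and from 0.923 over 1.64 to 2.28 CPM in eWAT. Its ratio of mean CPM was 38.0 over iWAT and 48.0 over eWAT, and its log2 fold change of 5.25 ± 0.19 against iWAT and 5.59 ± 0.20 against eWAT (edgeR adjusted p = 4.16e-11 and 1.11e-11) had the smallest adjusted p of the 36 genes in both comparisons. Me1, the cytosolic form that supplies NADPH, ranged from 1116 over 1544 to 2010 CPM in iBAT, from 420 over 1230 to 2230 CPM in iWAT and from 130 over 559 to 669 CPM in eWAT. The iWAT libraries lay on both sides of iBAT, while all eWAT libraries lay below it, and Me1 was called against eWAT (1.67 ± 0.37, edgeR adjusted p = 0.00120) and not against iWAT (0.31 ± 0.36, edgeR adjusted p = 0.491). The second of these values was -0.03 without the 4 libraries that stood apart. With wild type libraries alone, Me1 against eWAT was 1.51 with an edgeR adjusted p of 0.0513.

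Me2, the mitochondrial NAD-dependent form, was lower in iBAT. It ranged from 8.24 over 9.59 to 11.5 CPM in iBAT, from 9.43 over 15.4 to 31.8 CPM in iWAT and from 15.1 over 25.6 to 27.2 CPM in eWAT. Its 2 highest iWAT values, 31.8 and 25.8 CPM, were those of iWAT wt 3 and iWAT ko 2, where lymph node and macrophage genes were also highest. In the fit its log2 fold change was -0.91 ± 0.24 against iWAT and -1.26 ± 0.24 against eWAT (edgeR adjusted p = 0.00457 and 0.000347). Without the 4 libraries that stood apart, the value against iWAT was -0.30 and was no longer called (edgeR adjusted p = 0.0917).

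Outside the NAD-dependent cycle the mitochondrial and cytosolic forms differed. Idh2, the mitochondrial NADP-dependent isocitrate dehydrogenase, ranged from 339 over 393 to 409 CPM in iBAT, from 59.7 over 105 to 128 CPM in iWAT and from 83.4 over 93.3 to 99.6 CPM in eWAT, and all iBAT libraries were above the white ones (log2 fold change against iWAT 1.95 ± 0.14, edgeR adjusted p = 1.52e-08). Idh1, its cytosolic counterpart, ranged from 277 over 307 to 343 CPM in iBAT, from 125 over 236 to 341 CPM in iWAT and from 94.4 over 249 to 286 CPM in eWAT, and was called in neither comparison (edgeR adjusted p = 0.188 and 0.114). Aco1, the cytosolic aconitase that doubles as an iron sensor, ranged from 261 over 303 to 318 CPM in iBAT and from 124 over 278 to 320 CPM in iWAT, with groups that overlapped (log2 fold change 0.25 ± 0.17, edgeR adjusted p = 0.230). Against eWAT its 0.31 ± 0.17 was not called (edgeR adjusted p = 0.148), and was called at 0.32 without the 4 libraries (edgeR adjusted p = 0.00780). Mdh1, cytosolic malate dehydrogenase of the malate-aspartate shuttle, ranged from 872 over 1015 to 1101 CPM in iBAT, from 254 over 435 to 613 CPM in iWAT and from 267 over 424 to 466 CPM in eWAT, and was higher in iBAT by 1.25 ± 0.19 against iWAT (edgeR adjusted p = 3.42e-05).

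Among the enzymes that join the cycle to amino acids, Got1, cytosolic aspartate aminotransferase, was higher in iBAT, with 13.8 over 26.1 to 37.3 CPM against 4.45 over 6.99 to 12.0 CPM in iWAT and 4.0 over 6.00 to 10.2 CPM in eWAT (log2 fold change against iWAT 1.69 ± 0.29, edgeR adjusted p = 0.000128). Got2, the mitochondrial form, ranged from 26.4 over 50.0 to 56.0 CPM in iBAT, from 21.4 over 28.7 to 51.4 CPM in iWAT and from 35.7 over 38.9 to 623 CPM in eWAT. The value of 623 CPM belonged to eWAT ko 3, 8.45 times the next eWAT library, and epididymis markers moved with it in that library, where their part in the Got2 value was not tested. The log2 fold change of Got2 against eWAT was -1.40 ± 0.65 (edgeR adjusted p = 0.0772) and 0.0062 without eWAT ko 3. Against iWAT it was 0.48 ± 0.62 (edgeR adjusted p = 0.529), and without the 4 libraries that stood apart it was called at 0.97 (edgeR adjusted p = 0.0116). Glud1, glutamate dehydrogenase, lay between 171 and 314 CPM in all 18 libraries and was called in neither comparison (0.21 ± 0.13 and 0.24 ± 0.13, edgeR adjusted p = 0.170 and 0.121).

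Between genes, levels were compared as mean CPM per kilobase of exon, with all annotated exons of a gene joined. This length, 14624 bases for Me3 and 2082 for Mpc1, is not that of the transcripts present, so the order depends on the annotation. In iBAT, Pdha1 stood first at 801 ± 94.2 (SD, n = 6), followed by Pdk4 at 635 ± 333 and Ogdh at 634 ± 126, and these neighbours did not differ beyond their spread. Pdk3 stood last at 0.577 ± 0.0806. In iWAT the order opened with Pcx at 337 ± 128 and Me1 at 326 ± 153, followed by Mdh1 at 164 ± 47.2, and in eWAT with Pcx at 257 ± 94.9, Mdh1 at 154 ± 31.5 and Me1 at 127 ± 54.6. Me3, with a ratio of mean CPM over iWAT of 38.0, was last in both white tissues and reached only 5.27 ± 0.416 CPM per kilobase in iBAT.

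Pairs of enzymes with the same reaction or site were then compared as ratios within a library, which removes the scaling between libraries. For each of 7 pairs and 3 pairs of tissues, the log2 ratio of CPM + 0.1 was subtracted between tissues of the same mouse. All 6 mice went 1 way in 16 of the 21 comparisons, namely in all 14 between iBAT and a white tissue and in 2 between the white tissues. A two-sided exact sign-flip permutation test over 6 mice gave p = 0.03125 in each of these 16, the smallest value it can give, and 0.0410 after adjustment over 21.

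Sucla2 stood at 8.80 to 10.9 times the CPM of Suclg2 in the iBAT libraries, at 1.43 to 2.03 times in the iWAT libraries and at 0.968 to 1.76 times in the eWAT libraries, with the lowest in eWAT ko 3 and at least 1.38 times in the others. The log2 ratio was higher in iBAT by 2.44 ± 0.20 (SD over mice) than in iWAT and by 2.77 ± 0.34 than in eWAT. For Me1 over Me3 the ratio was 13.0 to 28.0 in iBAT, beside 277 to 1195 in iWAT and 57.1 to 600 in eWAT, where the lowest belonged to eWAT ko 3 and the other libraries held at least 276. The cytosolic over the mitochondrial form was lower in iBAT for both dehydrogenases: Idh1 over Idh2 was 0.694 to 0.869 in iBAT, beside 1.86 to 3.33 in iWAT and 1.04 to 3.18 in eWAT, and Mdh1 over Mdh2 was 0.682 to 0.851, 1.34 to 1.61 and 1.42 to 1.78. The lowest eWAT ratio of Idh1 over Idh2 was that of eWAT ko 3, and the other eWAT libraries held at least 1.97.

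The transaminases went the other way. Which of the candidate references and which strand setting made the counts is not given in the sources used here, so levels and ratio of Got1 and Got2 are those of the counts as deposited. Got1 over Got2 was 0.247 to 1.18 in iBAT, beside 0.208 to 0.273 in iWAT and 0.0106 to 0.165 in eWAT. Here 0.0106 was that of eWAT ko 3, the library with epididymis genes, and the other eWAT libraries held at least 0.106. The iBAT libraries spread over the widest range of the log2 ratio among the iBAT pairs (SD 0.91). Mpc1 over Mpc2 shifted least, by 0.29 ± 0.10 against iWAT and 0.43 ± 0.35 against eWAT on the log2 scale. Pdk2 over Pdk4 was 0.121 to 0.390 in iBAT, beside 0.476 to 2.60 in iWAT and 1.22 to 10.7 in eWAT, with the highest in eWAT ko 3 and at most 4.31 in the others. That ratio and the ratio of Got1 over Got2 were the 2 in which all mice also differed 1 way between iWAT and eWAT.

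**Figure D3:**
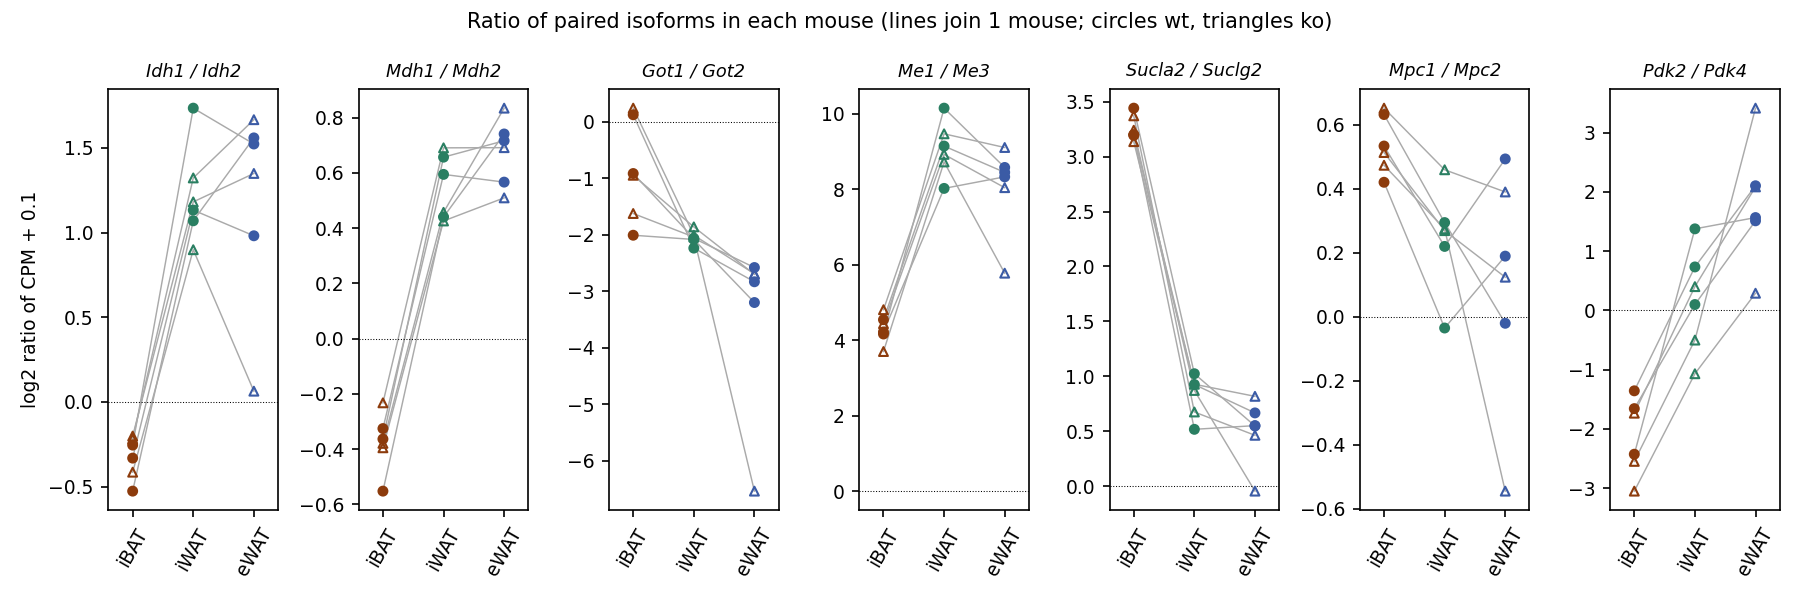
Log2 ratio of CPM + 0.1 for 7 pairs of genes in each mouse, with lines joining the 3 tissues of 1 mouse, filled circles for wt and open triangles for ko, and a separate vertical scale per panel. Idh1 over Idh2 and Mdh1 over Mdh2 lie below 0 in all iBAT libraries and above 0 in all white ones, and Sucla2 over Suclg2 lies above 3 in iBAT and at most near 1 in white fat.

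The 2 white tissues were compared next. In iWAT, 6 of the 36 genes were higher than in eWAT and 2 were lower, beside 5.70% and 4.50% of all genes tested. The higher genes were Pdk4 (1.61 ± 0.48), Me1 (1.35 ± 0.37), Pdha1 (1.01 ± 0.27), Dlat (0.86 ± 0.25), Pdhb (0.80 ± 0.24) and Sucla2 (0.69 ± 0.21), with edgeR adjusted p from 0.0246 to 0.0473. The lower genes were Pdk3 (-1.13 ± 0.23, edgeR adjusted p = 0.00550) and Pdp1 (-0.47 ± 0.13, 0.0270). Only Pdk3 had groups without overlap, where 4.62% of all genes tested did. The median log2 fold change was 0.35, beside 0.01 for all genes tested.

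The calls of higher genes lay close to the threshold, and their number changed with most choices of libraries, while Pdk3 stayed called whichever 1 library or mouse was left out. With wild type libraries only, Pdk3 was at -0.85 and was not called (edgeR adjusted p = 0.322). Pdp1 was not called in 8 of the 24 fits without 1 library or mouse, with values between -0.52 and -0.41 over all 24. With the mouse as a replicate block, Pdhb (0.78, edgeR adjusted p = 0.0559) and Sucla2 (0.64, 0.0717) were no longer called, while Pdp2 (0.69, 0.0447) was, a gene named after its values were seen. The number of higher genes was 18 without the 4 libraries that stood apart, 13 without iWAT wt 3 alone and 0 without iWAT wt 2, without eWAT wt 1 or with wild type libraries only. It was 4 without iBAT ko 1, 5 without eWAT wt 2 and 1 to 3 without any 1 of the other libraries. Over all genes tested, calls in either direction were 2066 of 20162 without the 4 libraries and 247 of 17450 with wild type libraries only. They were 1624 of 19407 without iWAT wt 3, 1675 of 19901 without iWAT wt 2 and 1202 of 19752 without eWAT wt 1. The fold changes of the 6 higher genes remained above 0 where their calls were lost. For the 6 genes they lay between 0.66 and 1.67 without eWAT wt 1 (edgeR adjusted p = 0.0617 to 0.104), between 0.54 and 1.64 without iWAT wt 2 (0.0636 to 0.111) and between 0.63 and 1.28 with wild type libraries only (0.313 to 0.448). iWAT wt 3 held the lowest level of iWAT for 29 of the 36 genes and for all 16 of the TCA cycle and the pyruvate dehydrogenase complex, and it also had the lowest summed adipocyte markers of iWAT (15954 CPM against 19318 to 37893). eWAT ko 3 held the lowest level of eWAT for 24 of the 36 genes, beside summed adipocyte markers of 14774 CPM against 20983 to 36194. Summed brown adipocyte markers were 353 CPM in iWAT wt 2, which held the highest level of iWAT for 26 of the 36 genes. They were 315 CPM in iWAT ko 3, with the next highest sum of the 16 genes, and 28.8 CPM in iWAT wt 3. In iWAT wt 1, ko 1 and ko 2 they were 164, 143 and 145 CPM, beside sums of the 16 genes of 4144, 4259 and 3005 CPM. The eWAT libraries held at most 23.1 CPM of brown markers. Summed adipocyte markers were also highest of iWAT in iWAT wt 2 and iWAT ko 3, at 37893 and 34305 CPM. The part of white and brown adipocyte shares in these differences was not tested.

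**Figure D4:**
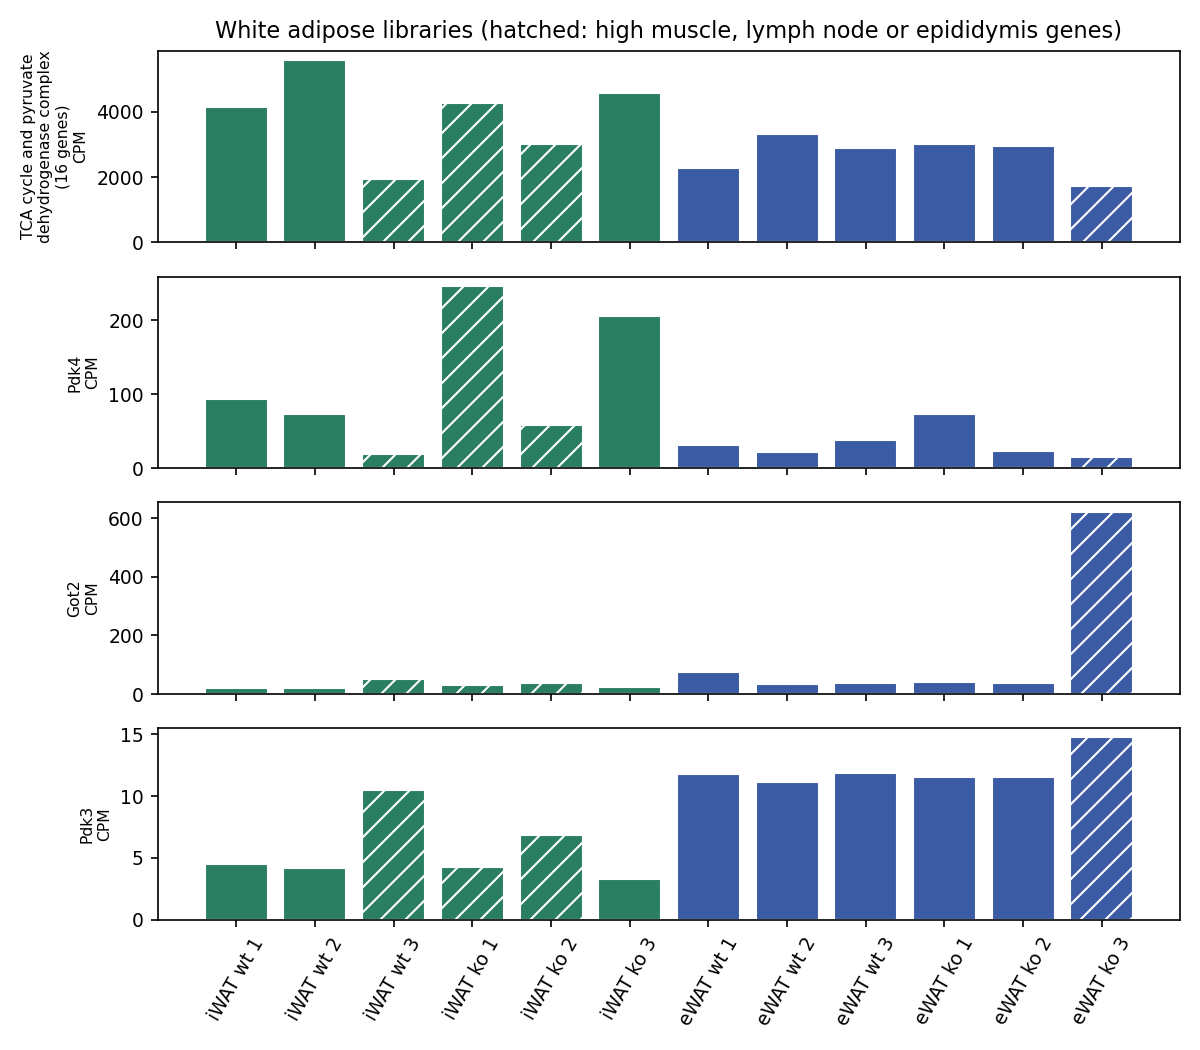
CPM in the 12 white libraries (bars from 0; green iWAT, blue eWAT) of the summed 16 genes of the TCA cycle and the pyruvate dehydrogenase complex, of Pdk4, of Got2 and of Pdk3, with hatching for the 4 libraries with high muscle, lymph node or epididymis genes. iWAT wt 3 and eWAT ko 3 hold the lowest sums of their tissue, 1957 and 1727 CPM, eWAT ko 3 alone holds the high Got2 of 623 CPM, and all eWAT libraries exceed all iWAT libraries in Pdk3.

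The question of the series, what the loss of Gm15551 changes in adipose tissue, was put to the same 36 genes. Across tissues, edgeR called 0 of them and DESeq2 called 0. Of all 18728 genes tested, edgeR called 0.00534% and DESeq2 called 4 genes. At an unadjusted p under 0.05 in edgeR, 1 of the 36 passed, beside 2.19% of all genes. The log2 fold change of ko against wt was below 0 for 23 of the 36 genes, beside 48.7% of all genes tested, with a median of -0.03. Without eWAT ko 3, 13 of the 36 were below 0, beside 52.3% of all genes. Within iBAT, iWAT and eWAT, 0 of the 36 were called by either tool, while of all genes edgeR called 0%, 0% and 0.00534% and DESeq2 called 13, 4 and 13 genes. In the same order, 0, 1 and 1 of the 36 had an unadjusted edgeR p under 0.05, beside 1.27%, 2.22% and 4.35% of all genes. In eWAT, 28 of the 36 were below 0, beside 48.9% of all genes, and all 16 of the TCA cycle and the pyruvate dehydrogenase complex were among them. That direction rested on eWAT ko 3, the library with epididymis genes and the lowest adipocyte markers of eWAT. Without it, 10 of the 36 genes and 1 of the 16 were below 0, beside 49.7% of all genes. For the interaction of genotype with tissue, edgeR called 0 of the 36 and 0% of all genes, and 0 passed at an unadjusted p under 0.05, beside 1.41% of all genes. No interaction was fitted with DESeq2.

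Pdk4 was the gene below 0.05 across tissues, with a log2 fold change of 0.82 ± 0.39 (unadjusted p = 0.0499, edgeR adjusted p = 1.0). In iBAT it was 1526, 1191 and 2408 CPM in wt 1, 2 and 3 and 4345, 1408 and 2497 CPM in ko 1, 2 and 3. In iWAT it was 93.8, 72.7 and 19.1 CPM in wt and 247, 58.0 and 206 CPM in ko, with a log2 fold change of 1.46 ± 0.68 (unadjusted p = 0.0485, edgeR adjusted p = 1). In eWAT it was 31.3, 22.2 and 38.2 CPM in wt and 73.4, 23.7 and 15.8 CPM in ko. The genotypes overlapped in every tissue, ko 1 was the highest library of each, and ko 2 lay within the wild type range of each. In iWAT, ko 1 was also the library with skeletal muscle markers (4849 CPM). The fit across tissues counted the 3 libraries of each mouse as independent. Its SE and p therefore rest on more units than the 3 mice per genotype.

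Got2 was the gene below 0.05 in eWAT, with a log2 fold change of 2.25 ± 0.83 (unadjusted p = 0.0164, edgeR adjusted p = 1). Its levels were 73.7, 35.7 and 37.6 CPM in wt 1, 2 and 3 and 40.2, 37.2 and 623 CPM in ko 1, 2 and 3, so that the value rested on the library with epididymis genes and the other two knockout libraries lay within the wild type range. Pdk3 in iBAT was 1.86, 1.49 and 1.49 CPM in wt and 1.25, 1.43 and 1.35 CPM in ko, each ko library below each wt library, as 4.94% of all genes tested also did not overlap between the genotypes in iBAT, with a log2 fold change of -0.26 ± 0.35 (edgeR adjusted p = 1). For the core of the cycle the estimates lay near 0 with wide limits, as for Cs across tissues at -0.08 ± 0.20 and Ogdh at 0.04 ± 0.18.

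Other genes of the pathway were listed beside the 36, among them succinate dehydrogenase with its assembly factors, lipoate enzymes, lactate dehydrogenases and carriers. Of 30 such genes with 1 row each, 20 were higher and 6 lower in iBAT than in iWAT, 22 higher and 7 lower than in eWAT, and 2 higher and 0 lower in iWAT than in eWAT. Over all genes tested the shares were 24.0% and 30.3%, 24.4% and 30.2%, and 5.70% and 4.50%, so that the 2 genes were near the background. For these 30 genes edgeR called 0 for genotype across tissues, with 0 at an unadjusted p under 0.05. Ldhb, the lactate dehydrogenase subunit of oxidative tissues, rose against iWAT by 3.76 on the log2 scale (707 to 818 CPM in iBAT, 25.2 to 81.1 CPM in iWAT). The largest falls against iWAT were Gpt2, mitochondrial alanine aminotransferase, at -3.24 (15.4 to 25.9 CPM in iBAT, 98.6 to 258 CPM in iWAT), and Slc25a10, the dicarboxylate carrier, at -3.15 (32.5 to 60.3 CPM in iBAT, 184 to 649 CPM in iWAT). The iBAT and iWAT libraries did not overlap for any of these 3 genes.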

How the data were processed

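Polyadenylated RNA of iBAT, iWAT and eWAT from 3 wt and 3 ko mice was sequenced in paired-end libraries. Per the labels and the study's methods, the authors demultiplexed with bcl2fastq, filtered with cutadapt and quantified with Salmon on GENCODE M22 (GRCm38), alone or with RNAcentral. The authors deposited gene-level estimated counts, whole numbers that had not been normalised. Which reference and strand setting made this table is not given in the sources used here, and Salmon divides reads shared by near-identical genes.

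Testing used edgeR 4.0.16 (glmQLFTest, R 4.3.3) after filterByExpr and TMM, with tissue and genotype terms across all 18 libraries, or 1 mean per group for genotype within tissue and the interaction. P-values were adjusted by Benjamini-Hochberg over 18728 genes. The SE is the log2 fold change over the square root of F. Whether same-numbered wt and ko mice shared a litter is not stated, and each group held 3 mice. The main edgeR fits had no term for the mouse, so the 3 libraries of 1 mouse counted as independent. Their p-values, also for genotype across tissues, measure the spread between libraries and not between animals. Mouse identifiers in the labels pair the tissues, and deviations from group means correlated by -0.13 to 0.30 between tissues of 1 mouse. Alternatives were DESeq2 1.42.0 and its size factors, other filters, mitochondrial genes left out, a mouse or replicate block, wild type libraries alone, libraries of 1 tissue and leaving out libraries or mice. Exon lengths came from GENCODE M21.

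The 36 genes, the lists and the rule for genes named (malic enzymes, kinases, pairs, the extremes of each role, called or nominal genes) were chosen with earlier results of these data known. Nnt, with 2 rows, was left out of the other pathway genes. The values of 1 gene of that list are not reported here.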

Additional observations from a re-analysis of the deposited data

How the results depend on the processing

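For iBAT against iWAT and eWAT, every recomputed count of higher or lower genes stayed within 1.5 times the reported count (27 to 28 higher and 2 to 3 lower against iWAT, 27 to 29 and 3 to 4 against eWAT). Counts for genotype and the interaction stayed at 0. The number of the 21 ratio comparisons with all mice in 1 direction was 16 to 19, against 16 as reported. For iWAT against eWAT, higher genes numbered 3 without a filter, 10 with DESeq2, 18 without the 4 libraries that stood apart and 0 with wild type alone, and lower genes 1 without a filter and 0 with wild type alone. Calls in either direction over all genes were, in the order of the higher genes, 1505 of 38809, 2705 of 18728, 2066 of 20162 and 247 of 17450. Leaving out 1 library or mouse gave 0 to 13 higher and 1 to 2 lower of the 36 genes, beside 750 to 2117 calls over all genes. The higher count stayed within 1.5 times only without iBAT ko 1 or eWAT wt 2. The cause was not tested. Estimates that changed sign, none of them called, were Me1 against iWAT (-0.027) and, against eWAT, Pcx (-0.018) and Got2 (0.0010) without the 4 libraries. Leaving out 1 library or mouse moved the value against eWAT from -0.021 to 0.26 for Pcx and from -1.72 to 0.0062 for Got2, and for Got2 it was called without eWAT ko 1 or without eWAT ko 2 (-1.57 in both). DESeq2 gave no adjusted p for Got2, and the DESeq2 fit of the interaction was not run. With the mouse as a replicate block, 5 of the 36 genes were higher in iWAT than in eWAT, beside 1732 of 18728 genes tested called in either direction. There Pdhb and Sucla2 lost their call and Pdp2 gained one, and the block changed no other call of the 36 genes between tissues. Same-numbered wt and ko libraries deviated with correlations of -0.47 to 0.55 and are not taken as pairs here, and the genotype counts with a replicate block were 0. Among the 36 genes, Pdk3 in iBAT and Me3 in white fat had levels of a few CPM, so that counting error weighs there.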
